A study of Mus musculus with 3 samples.

Results

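The genes described here are 36 genes of glucose breakdown and of the response to low oxygen, out of 32285 gene rows in the deposited matrices. They are listed by name, and the list was drawn up with earlier results of these data known. It holds 16 glycolytic enzymes, 4 transporters of glucose or lactate, 2 enzymes that set fructose bisphosphate levels (Pfkfb3 and Pfkfb4), 4 genes of the oxygen sensor and 10 targets of the hypoxia response. All 36 symbols stood in both matrices. Aldoa stood in more than 1 row, and the row with 30044 UMIs was used in place of the one with 16. Eno1 has a near-identical copy, Eno1b, at 12.9 to 34.8 CPM (a scaled level, defined below), so that values of Eno1 are uncertain.

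The cells were sorted CD4+ T cells from kidney and spleen of MRL/lpr mice, a lupus-prone strain, in which Ezh2, the gene of a histone methyltransferase, was flanked by loxP sites (Ezh2 fl/fl) after 6 generations of crossing. KO mice also carried Cd4-Cre/ERT2, a recombinase that tamoxifen activates in cells using the Cd4 promoter, and WT mice lacked it. Both genotypes received tamoxifen (300 mg/kg on 3 days of every other week) until 24 weeks of age, begun at 10 weeks or at 14 weeks, and the start is not given per mouse. Kidneys were digested with enzymes and spleens were mashed, so that organ and handling cannot be told apart. Values are UMI counts (counted transcript molecules) summed over the cells of 1 mouse and 1 organ, for 2 KO mice (KO1, KO2) and 3 WT mice (WT1, WT2, WT3), each with both organs. Mouse and genotype follow from antibody tags joined to a deposited key by order, which the sources used here do not state outright.

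The 10 sums held 219 to 2386 cells and 900068 to 10102765 UMIs, the fewest in kidney of KO2, and medians of 3187 to 3644.5 UMIs per cell. Levels below are CPM, UMI counts scaled to a common library size with TMM factors and not divided by transcript length, so they are compared within a gene and not between genes. In KO1, KO2, WT1, WT2 and WT3, Ezh2 stood at 51.4, 53.5, 69.9, 172 and 152 CPM in spleen and at 75.8, 59.8, 90.2, 159 and 139 CPM in kidney. The genotypes did not overlap, the edgeR adjusted p was 0.192 in spleen and 0.467 in kidney, and these 5′ reads need not lie in the deleted exons. All 6 T cell markers were detected in every sum (3091 to 4048 CPM together in kidney, 3401 to 4502 in spleen). The 12 kidney markers summed to 903 CPM in kidney of WT3, to between 0.739 and 67.3 CPM in kidney of the other 4 mice, and to 0.468 to 101 CPM in spleen. In kidney of WT3, 6 cells with at least 2 UMIs of these markers held 74.4% of the Ldhb UMIs, 71.4% of those of Vegfa, 67.6% of those of Bnip3 and 51.6% of those of Tpi1.

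Glycolysis splits glucose into pyruvate, which lactate dehydrogenases (Ldha, Ldhb) interconvert with lactate, and activated T cells use it heavily while they grow. When oxygen is low, the hydroxylases encoded by Egln1 and Egln3 no longer mark HIF-1α, the product of Hif1a, for destruction through Vhl. HIF-1α then switches on glycolytic genes, the glucose transporter Slc2a1 and targets such as Vegfa. Its control lies largely at the level of the protein, which RNA counts do not show.

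Start-site sequences of 4 members are printed because Slc2a1, Ldha and Mxi1 were higher in kidney and because Ldha and Ldhb, which encode subunits of the same enzyme, parted in dividing cells. Each is the 250 bases before an annotated start (RefSeq, GRCm38.p6, the build of the files), 5′ to 3′ along the gene, with the core letters that HIF binds in capitals. The core has the form ACGTG, or the form GCGTG with G in place of the first base, and each was searched on both strands. The windows lie at chr4:119108495-119108744 (plus strand), chr7:46845554-46845803 (plus strand), chr19:53329163-53329412 (plus strand) and chr6:142507958-142508207 (minus strand).
Slc2a1: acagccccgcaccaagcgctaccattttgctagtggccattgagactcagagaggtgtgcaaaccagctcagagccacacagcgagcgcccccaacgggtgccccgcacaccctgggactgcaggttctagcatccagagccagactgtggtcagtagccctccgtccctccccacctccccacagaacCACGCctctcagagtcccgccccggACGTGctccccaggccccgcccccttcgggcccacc
Ldha: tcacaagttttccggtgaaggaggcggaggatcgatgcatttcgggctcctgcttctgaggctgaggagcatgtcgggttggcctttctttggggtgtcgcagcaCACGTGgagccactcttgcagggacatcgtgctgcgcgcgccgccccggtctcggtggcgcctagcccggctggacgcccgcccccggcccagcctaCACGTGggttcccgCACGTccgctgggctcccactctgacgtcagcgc
Mxi1: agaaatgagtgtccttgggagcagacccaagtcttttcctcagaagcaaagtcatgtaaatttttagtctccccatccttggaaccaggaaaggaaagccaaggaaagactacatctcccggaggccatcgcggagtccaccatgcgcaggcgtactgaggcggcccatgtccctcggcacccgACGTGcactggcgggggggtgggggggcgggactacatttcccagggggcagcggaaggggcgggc
Ldhb: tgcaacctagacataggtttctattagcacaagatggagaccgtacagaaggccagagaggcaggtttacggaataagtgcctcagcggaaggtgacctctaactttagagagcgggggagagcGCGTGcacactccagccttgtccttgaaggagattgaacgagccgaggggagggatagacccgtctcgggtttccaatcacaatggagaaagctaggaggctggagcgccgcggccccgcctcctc
Counted on both strands, ACGTG matches 1 time in the Slc2a1 window, 1 time in that of Mxi1, 5 times in that of Ldha and 0 times in that of Ldhb. GCGTG matches 1 time each in the windows of Slc2a1 and Ldhb. Other starts differ: a second Ldha window (chr7:46846832-46847081) holds 1 match to GCGTG and 0 to the A form. Of the other Mxi1 windows, chr19:53310256-53310505 holds neither form and chr19:53329445-53329694 holds 1 match to ACGTG. The E-box CACGTG, read by MYC and by the protein Mxi1 encodes, matches on both strands, so these letters do not tell the factors apart. Of 33 members with windows in the table, 20 held ACGTG in at least 1 window and 30 held either form. By window, 24 of 49 held ACGTG and 39 either form, against 16.6% and 38.6% of all 32851 windows of this length.

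Kidney cells carried more RNA of the glucose transporter Slc2a1, of Hif1a and of 3 of 10 hypoxia targets than spleen cells of the same mice. Not called were 12 of the 16 glycolytic enzymes and 6 of the 10 targets. Of the 36 members, 9 were higher in kidney and 2 lower (edgeR quasi-likelihood test with the mouse as a block, Benjamini-Hochberg adjusted p under 0.05 over 12072 genes). Over all genes tested, 16.1% were higher and 14.6% lower. The members' median log2 change was 0.12, against -0.04 over all genes. Scaled by library totals alone, 7 members were higher and 5 lower. By role, 2 of 4 transporters, 3 of 16 enzymes, 1 of 4 sensor genes and 3 of 10 targets were higher, and 1 enzyme and 1 target were lower.

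Markers of other cells and states moved between the organs too. Of the CD8, γδ and NK markers, 2 of 3 tested were higher in kidney (Cd8a, log2 change 2.26, and Cd8b1, 1.47). The 5 markers of that list summed to 26.7 to 189.6 CPM in kidney and 11.2 to 62.9 CPM in spleen, with Ncr1 at 0 in every kidney. Of 7 myeloid markers 2 were higher and 3 lower (16.9 to 143 CPM together in kidney, 12.3 to 391 in spleen), and of 5 naive markers 2 were higher and 3 lower (215 to 1986 and 239 to 2822 CPM). Of the B and plasma cell markers, 1 of 5 tested was lower, and of the kidney markers 2 of 6 were higher. Without cells holding UMIs of other lineages, 9 members were higher and 1 lower. Cells with a UMI of Igfbp4, a gene of naive T cells, were also left out. Mxi1 then stood at 138 to 328 CPM in kidney and 35.1 to 73.7 CPM in spleen. Slc2a1 stood at 61.2 to 77.1 and 29.3 to 44.2 CPM. The part of naive cells without an Igfbp4 UMI was not tested.

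Slc2a1, the main glucose transporter of activated T cells, stood in kidney at 73.6, 66.8, 73.5, 61.9 and 58.2 CPM in KO1, KO2, WT1, WT2 and WT3. In spleen of the same mice it stood at 42.4, 39.4, 42.8, 29.5 and 38.6 CPM. Every kidney value lay above every spleen value, with ratios of 1.51 to 2.10 within mice (log2 change 0.80, SE 0.09, edgeR adjusted p = 0.000247, n = 5).

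Slc16a3, which exports lactate, stood in kidney at 12.6, 7.03, 14.6, 4.42 and 4.70 CPM and in spleen at 3.54, 4.87, 9.41, 3.04 and 2.08 CPM, in the same order of mice. The organs overlapped across mice, but kidney was higher in 5 of 5 (log2 change 0.95, SE 0.24, edgeR adjusted p = 0.0186). The glucose transporter Slc2a3 and the lactate transporter Slc16a1 had log2 changes of 0.19 and 0.34 and were not called.

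Among the enzymes, Gapdh, in the middle of the pathway, stood in kidney at 308, 287, 351, 396 and 386 CPM and in spleen at 211, 207, 280.2, 330.5 and 298 CPM in KO1, KO2, WT1, WT2 and WT3. Kidney was higher in 5 of 5 mice (log2 change 0.39, SE 0.07, edgeR adjusted p = 0.00343). Ldha, which turns pyruvate into lactate, stood in kidney at 509.7, 462, 568, 529.7 and 481 CPM and in spleen at 420.2, 370.1, 429.6, 503 and 390.3 CPM. Its kidney value was the higher one in 5 of 5 mice (log2 change 0.27, SE 0.07, edgeR adjusted p = 0.0191). The call was lost without KO2 (adjusted p = 0.0549) or WT3 (0.0515), and it held in 12 of 17 alternatives tried.

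Hk2, the hexokinase induced in activated T cells, was scarce, at 3.33 to 11.7 CPM in kidney and 1.98 to 4.68 CPM in spleen. Its level was higher in kidney in 4 of 5 mice (log2 change 1.13, SE 0.38, edgeR adjusted p = 0.0491). The call was lost without KO2 (0.115), WT1 (0.154) or WT3 (0.120), and it held in 12 of 16 alternatives tried. Pfkl, a phosphofructokinase, was lower in kidney in 5 of 5 mice, at 30.5 to 38.6 CPM against 39.7 to 43.6 CPM (log2 change -0.29, SE 0.09, edgeR adjusted p = 0.0385). That call was lost without KO1 (0.0633), KO2 (0.0803), WT2 (0.104) or WT3 (0.146), and it held in 8 of 17 alternatives tried.

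Other enzymes of the middle and lower pathway did not pass the test between organs. Tpi1, which interconverts the triose phosphates, stood in kidney at 60.99, 38.7, 86.2, 38.8 and 64.9 CPM and in spleen at 61.2, 50.9, 100.2, 86.3 and 48.2 CPM in KO1, KO2, WT1, WT2 and WT3. Pgk1, which makes ATP, stood at 131, 127, 139, 136 and 114 CPM in kidney and 123, 119.5, 147, 167 and 128 CPM in spleen. For both, the organs overlapped, with log2 changes of -0.26 and -0.08.

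Pgam1, the phosphoglycerate mutase, stood at 83.2, 73.8, 87.1, 109 and 118 CPM in kidney and 88.4, 80.4, 111, 163 and 109.8 CPM in spleen, in the same order of mice. Pkm, the pyruvate kinase, stood at 433, 427, 556, 535 and 433 CPM in kidney and 448, 415, 579, 682 and 516 CPM in spleen. Their log2 changes were -0.22 and -0.14, and the organs overlapped.

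Of the sensor genes, Hif1a stood in kidney at 458, 357, 417, 238 and 244 CPM and in spleen at 221, 259.7, 271, 213 and 196 CPM in KO1, KO2, WT1, WT2 and WT3. It was higher in kidney in 5 of 5 mice, with ratios of 1.12 to 2.08 (log2 change 0.52, SE 0.12, edgeR adjusted p = 0.0109). Egln1, a hydroxylase that marks HIF-1α, stood in kidney at 69.1, 66.8, 70.4, 77.4 and 75.5 CPM and in spleen at 57.7, 57.6, 51.4, 68.5 and 72.9 CPM. Kidney was above spleen in 5 of 5 mice, and the adjusted p of 0.0516 (edgeR) missed the threshold.

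Egln3, a hydroxylase that HIF itself induces, stood in kidney at 11.1, 19.9, 12.2, 8.17 and 8.23 CPM and in spleen at 15.5, 14.7, 7.46, 11.7 and 9.28 CPM, with no common direction. Vhl, which binds marked HIF-1α, stood in kidney at 14.05, 21.1, 14.3, 23.3 and 14.7 CPM and in spleen at 13.6, 11.4, 12.5, 12.4 and 14.04 CPM. It was higher in kidney in 5 of 5 mice and was not called (log2 change 0.39, SE 0.17, edgeR adjusted p = 0.109).

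Mxi1, which encodes a repressor that opposes MYC at E-boxes, had the largest log2 change of the 36 members between organs. It stood in kidney at 125, 121, 162, 324 and 185 CPM and in spleen at 25.7, 32.8, 51.8, 73.2 and 49.7 CPM in KO1, KO2, WT1, WT2 and WT3. Each kidney was 3.12 to 4.86 times the spleen of the same mouse (log2 change 1.96, SE 0.10, edgeR adjusted p = 6.4e-06, n = 5), and Mxi1 was called under all 17 alternatives tried. Myc, which drives glycolytic genes in growing T cells, had a log2 change of -0.78 in the same fit (adjusted p = 0.00311).

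Ero1l, an oxidase of protein folding in the endoplasmic reticulum, stood at 37.3 to 49.2 CPM in kidney and 19.5 to 29.6 CPM in spleen, with no overlap (log2 change 0.76, SE 0.13, edgeR adjusted p = 0.00238). Vegfa, a vessel growth factor, was scarce, at 0.680 to 8.23 CPM in kidney and 0.234 to 5.03 CPM in spleen. It was higher in kidney in 5 of 5 mice (log2 change 1.49, SE 0.45, edgeR adjusted p = 0.0324). Without cells carrying kidney transcripts its log2 change was 1.04 (adjusted p = 0.0314). The call was lost without WT1 (0.0746), WT2 (0.0635) or WT3 (0.0935), and it held in 12 of 16 alternatives tried.

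Ddit4, a stress-induced inhibitor of mTORC1, was lower in kidney in 5 of 5 mice, at 76.3 to 84.3 CPM against 76.5 to 129 CPM (log2 change -0.31, SE 0.10, edgeR adjusted p = 0.0475). That call was lost without KO1 (0.140), KO2 (0.120), WT2 (0.0576) or WT3 (0.147), and it held in 6 of 17 alternatives tried. The mitophagy genes Bnip3 and Bnip3l, Pdk1, P4ha1, Ankrd37 and Higd1a were not called. P4ha1, a collagen prolyl hydroxylase, stood in kidney at 85.02, 112, 76.8, 50.01 and 59.3 CPM and in spleen at 81.2, 81.2, 56.4, 59.4 and 96.8 CPM in KO1, KO2, WT1, WT2 and WT3, with no common direction.

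**Figure D1:**
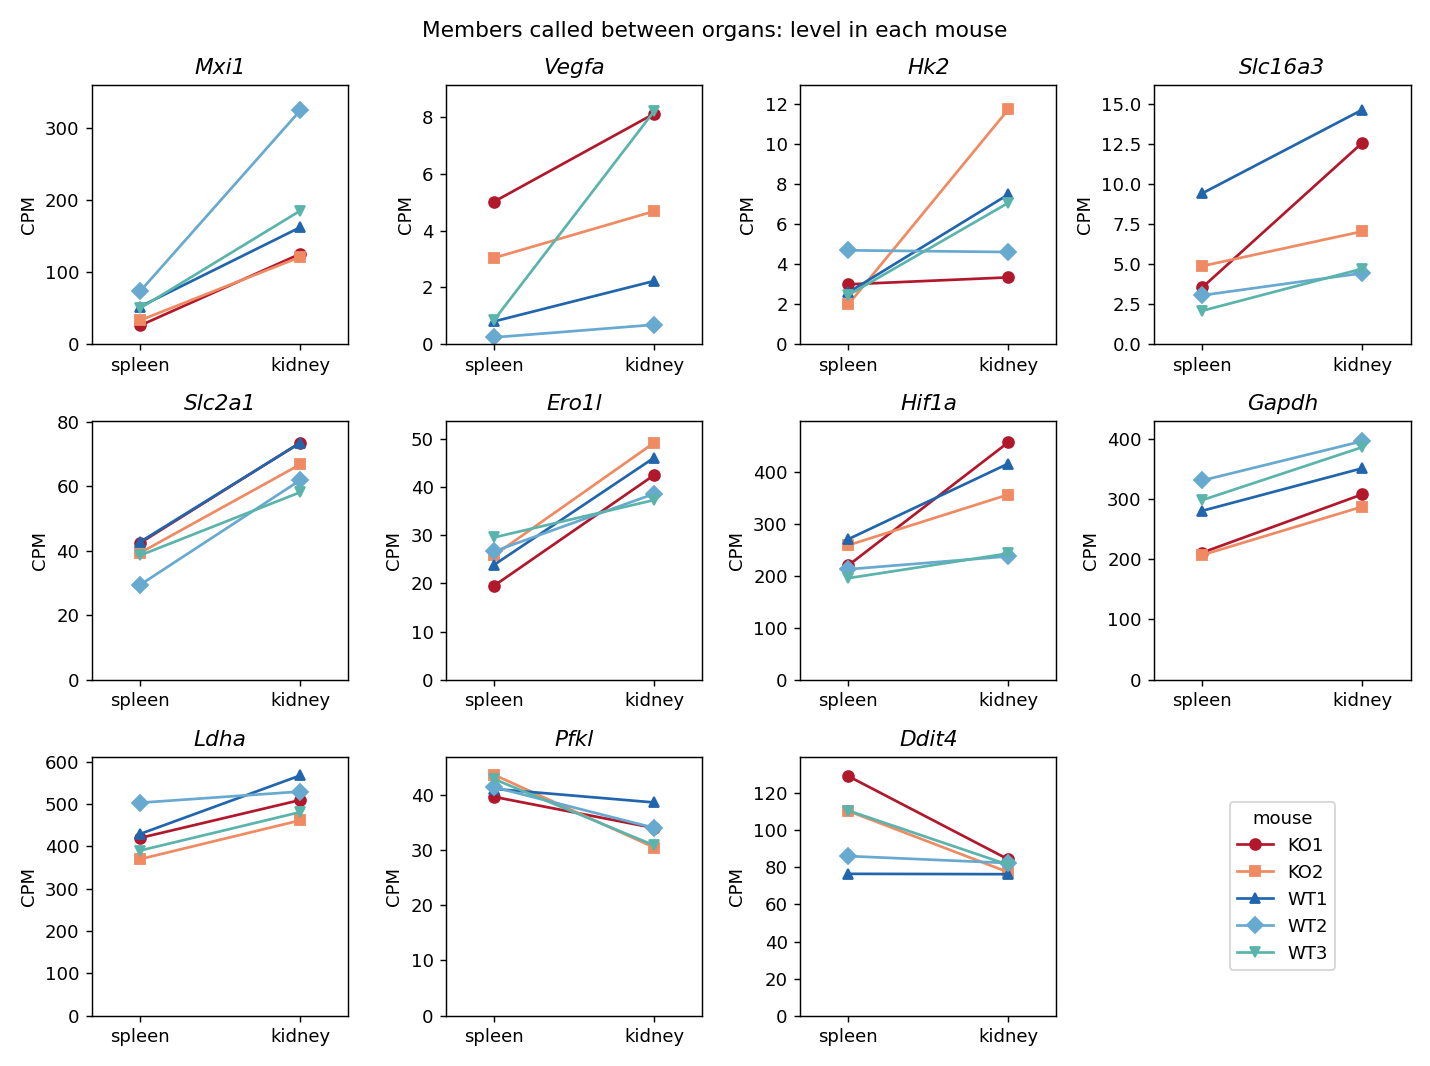
Level (CPM) of the 11 members called between organs, with 1 line per mouse joining its spleen to its kidney sum. All 5 lines rise towards kidney for Mxi1, Slc2a1, Ero1l, Hif1a, Gapdh, Ldha, Vegfa and Slc16a3, 4 of 5 rise for Hk2, and all 5 fall for Pfkl and Ddit4.

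Within the 3 WT mice alone, 6 members were higher in kidney (Slc2a1, Gapdh, Hif1a, Vegfa, Ero1l and Mxi1) and 0 lower (edgeR, 9 members at an unadjusted p under 0.05, against 38.5% of genes). Of all genes, 13.4% were higher and 9.64% lower. Without WT2, 2 were higher, and without WT3, 3 were higher and 1 lower. Without WT1, 2 were lower. Of 45 further genes of these pathways, 37 were tested in all mice. Of these, 13 were higher in kidney and 3 lower, against 16.1% and 14.6% of genes in that fit. Among them, the hypoxia-induced repressor Bhlhe40 had a log2 change of 1.11 (edgeR adjusted p = 0.00141), Sap30 one of 0.88 (0.00165) and Nfil3 one of 0.98 (0.00528). Ndrg1 had one of 1.83 (0.0128) and the HIF paralogue Epas1 one of 0.76 (0.0117). Ndrg1 was lower in kidney of KO1 (36.2 against 38.35 CPM), higher in kidney of the other mice, and highest in kidney of WT3 (95.5 CPM). Epas1 was nearly level in KO2 (22.3 CPM in kidney, 22.2 CPM in spleen) and higher in kidney of the other mice.

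The 13 early-response and heat-shock genes, which tissue dissociation can raise, summed to 8790.2 to 13491 CPM in kidney and 9668 to 20232 CPM in spleen, with none at 0. Of these, 4 were higher in kidney and 3 lower. Leaving out cells with at least 2 UMIs over 6 of them kept 51 to 511 cells per mouse in kidney and 43 to 369 in spleen. These were 18.3 to 34.8% of the kidney cells and 3.31 to 15.5% of the spleen cells, so unlike parts of the organs were compared. In those cells 1 member (Mxi1) was higher and 4 were lower, of 25 tested. The fit called fewer genes than the 3715 called over all cells, and its calls over all genes were not split by direction. These member counts therefore have no share over all genes beside them. The part of handling in the other calls was not tested. In such sums, fewer cells of a type and less RNA per cell cannot be told apart.

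The summed targets stood higher in kidney with Mxi1 among them and overlapped between organs without it, and the summed enzymes did not differ between organs beyond the spread between mice. The 10 targets summed to 562, 614, 601, 734 and 615 CPM in kidney of KO1, KO2, WT1, WT2 and WT3 and to 472, 474, 414, 465 and 509 CPM in spleen. Kidney was higher in 5 of 5 mice, by a mean of 0.42 ± 0.17 on the log2 scale (SD, n = 5). Without Mxi1, a step chosen after its levels were seen, the other 9 summed to 437, 493, 439, 410.3 and 430.4 CPM in kidney and 446, 441, 362, 392 and 459 CPM in spleen, in the same order. Kidney was then higher in 3 of 5 mice, and the mean log2 difference was 0.08 ± 0.15 (SD). The 16 enzymes summed to 2648, 2541, 3122, 3065 and 2939.9 CPM in kidney and to 2401, 2332, 2846, 3334 and 2776 CPM in spleen. Their sum was higher in kidney in 4 of 5 mice, with a mean log2 difference of 0.07 ± 0.11 (SD, n = 5). The ratio of enzymes to targets was lower in kidney in 5 of 5 mice with Mxi1 (log2 difference -0.35 ± 0.26, SD) and in 3 of 5 without it (-0.0048). These sums were given no test.

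**Figure D2:**
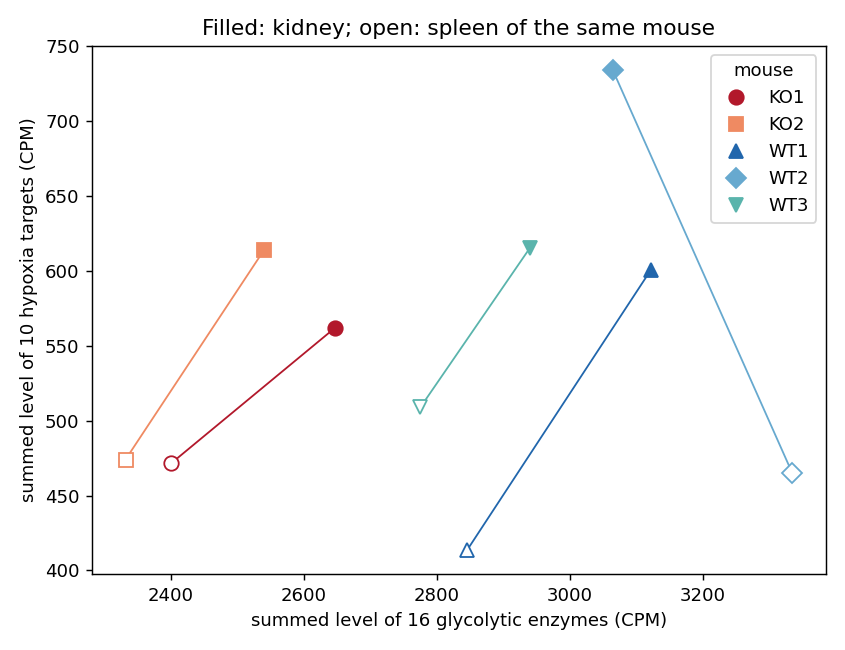
Summed level of the 10 hypoxia targets (CPM) against that of the 16 glycolytic enzymes (CPM), with a line joining the spleen (open) and kidney (filled) sum of each mouse and axes that do not start at 0. The kidney sums of the targets lie at 562 CPM or more and the spleen sums at 509 CPM or less, while the enzyme sums of the organs overlap. Without Mxi1 the target sums overlap too, at 410.3 to 493 CPM in kidney and 362 to 459 CPM in spleen.

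Between genotypes, no member passed the test in either organ with all 5 mice. None of the 36 members was called in spleen (edgeR, 10 at an unadjusted p under 0.05, against 16.9% of genes). The same fit called 0.205% of genes higher and 0.0342% lower in KO mice. DESeq2 called 3 members higher and 3 lower in spleen, but it called many more genes, so those shares do not apply to it. None of 33 tested was called in kidney (edgeR, 5 at an unadjusted p under 0.05, against 9.21% of genes; 0 by DESeq2), against 0.00% higher and 0.00% lower. Pdk1, Aldoc and Pfkfb4 were too low to be tested there. The members' median log2 change was -0.04 in spleen and -0.04 in kidney, against -0.01 over all genes in each organ.

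Ldhb, the lactate dehydrogenase subunit that favours pyruvate, stood in spleen at 71.1, 72.4, 36.1, 11.2 and 16.7 CPM in KO1, KO2, WT1, WT2 and WT3. The genotypes did not overlap (log2 change 1.73, SE 0.45, edgeR adjusted p = 0.161, n = 2 and 3). In kidney Ldhb stood at 43.2 and 45.7 CPM in the KO mice and 34.03, 13.4 and 58.5 CPM in the WT mice, highest in WT3, where most of its UMIs lay in the 6 cells named above. Without cells carrying kidney transcripts, kidney of WT3 stood at 15.8 CPM. In spleen of KO1 such cells held 70 of 382 Ldhb UMIs. Without them the spleens of KO1 and KO2 stood at 58.9 and 72.5 CPM, and those of WT1, WT2 and WT3 at 35.9, 11.1 and 16.5 CPM.

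Pdk1, a kinase that turns pyruvate away from the mitochondrion, stood in spleen at 10.2 and 7.45 CPM in KO mice and 2.93, 2.57 and 2.32 CPM in WT mice (log2 change 1.77, SE 0.30, edgeR adjusted p = 0.0807). Vegfa stood at 5.03 and 3.04 against 0.799, 0.234 and 0.855 CPM (log2 change 2.55, SE 0.56, edgeR adjusted p = 0.117). Both KO mice lay above the WT mice for these members. In the other direction, the log2 change was -0.51 for Gapdh (adjusted p = 0.117), -0.49 for the aldolase Aldoa (0.120) and -0.96 for Mxi1 (0.123).

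The settings changed the spleen calls. Without WT1, Ldhb (log2 change 2.33, edgeR adjusted p = 0.000815), Pdk1 (1.86, 0.0103), Vegfa (2.64, 0.0231), Gapdh (-0.58, 0.00966) and Aldoa (-0.53, 0.0157) were called in spleen. They were among 6 members higher and 5 lower, in a fit that called 2254 of 11351 genes. With WT1 kept, DESeq2 called 3 members higher and 3 lower, a joint fit of 4 groups 1 and 2, and a fit with no filter on low counts 1 and 1. Pdk1 was called in 5 of 17 alternatives, these 3 among them. In kidney, leaving out WT1 gave 2 members higher and 739 genes called. WT1 was also the WT mouse nearest to the KO mice in Ezh2. At least 2 UMIs of the effector gene Nkg7 were found in 1216 of 2386 spleen cells of WT1, against 833 of 922 in WT2, 1876 of 2146 in WT3, 217 of 1324 in KO1 and 373 of 1580 in KO2. Whether the Ezh2 level or the makeup of WT1 bears on the calls was not tested.

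Counted by overlap, 6 members lay above every WT mouse in both KO spleens and 8 below, against 18.5% and 20.7% of genes. Those above were Ldhb, Egln3, Pfkfb4 and the targets Pdk1, Bnip3 and Vegfa. Those below were the enzymes Gpi1, Aldoa, Gapdh, Pgk1, Pgam1 and Pkm, with Slc16a1 and Mxi1. In kidney 2 lay above (Slc16a1 and P4ha1) and 7 below, against 12.8% and 17.7% of genes. The spleen counts lay near the shares over all genes. Aldoa, Gapdh, Pgam1 and Mxi1 lay below in both organs, which come from the same mice, and the share of all genes that did so was not counted.

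**Figure D3:**
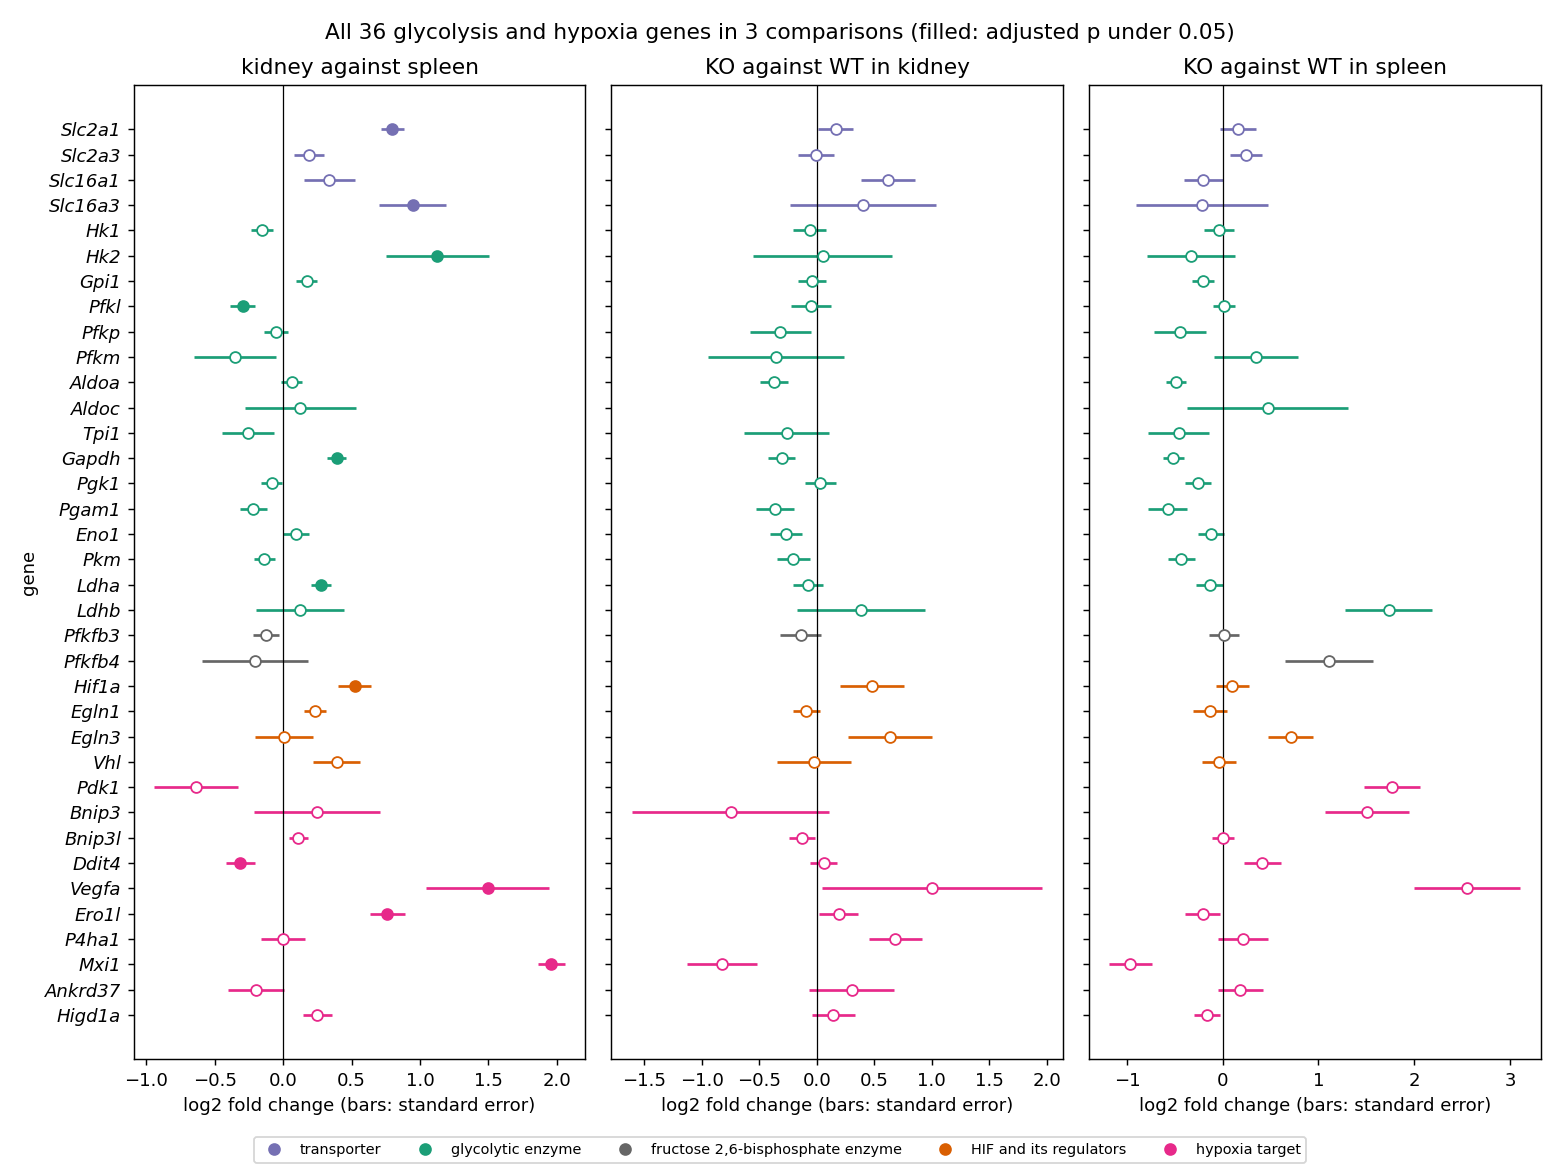
Log2 fold change with its standard error (edgeR) of the 36 members by role, for kidney against spleen and for KO against WT in each organ, filled where the adjusted p is under 0.05. The kidney against spleen values have 11 filled points and the genotype values have none.

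Whether the organ difference depended on genotype was tested with an interaction term. No member was called (edgeR, 4 at an unadjusted p under 0.05, against 8.23% of genes, and 0 by DESeq2), against 0.0331% of genes higher and 0.00% lower. The smallest unadjusted p among the members belonged to Bnip3 (log2 difference -2.12, adjusted p = 0.460) and Ldhb (-1.36, 0.479), both with most of their WT3 kidney UMIs in 6 cells. The Ldhb term passed in 2 of 15 alternatives, without WT1 (0.0424) and with no filter on low counts (5.1e-06).

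The makeup of the spleen sums moved with genotype. At least 2 UMIs of Igfbp4, a gene of naive T cells, were found in 579 and 460 spleen cells of KO1 and KO2 but in 37, 13 and 13 of WT1, WT2 and WT3. Such cells are a range of counts and not a type, and 14 to 57 cells per mouse with exactly 1 UMI were left out. Against cells with no Igfbp4 UMI, all 4 naive markers tested were higher and all 7 effector markers lower. Markers of B cells and myeloid cells were lower too (Igkc -3.82, S100a8 -9.91), and their part in the values below was not tested.

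Spleen cells with Igfbp4 carried more Ldhb and Pdk1 and less Hif1a, Mxi1 and several glycolytic enzymes than cells without it in the same spleens. Of 35 members tested, 4 were higher and 9 lower (edgeR, mouse as a block), against 8.36% and 19.3% of genes. Ldhb stood at 115, 111, 78.04, 54.97 and 119.9 CPM in cells with Igfbp4 of KO1, KO2, WT1, WT2 and WT3 and at 45.6, 57.7, 35.8, 10.5 and 16.01 CPM in cells without. It was higher in 5 of 5 mice (log2 change 1.19, SE 0.19, edgeR adjusted p = 7.4e-06), with only 4 and 8 UMIs behind the values of WT2 and WT3.

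Pdk1 was also higher (log2 change 1.62, adjusted p = 0.00252), as were Vegfa (1.60, 0.0289) and Eno1 (0.49, 0.0220). Lower members were Tpi1 (-1.04, adjusted p = 2.2e-05), Mxi1 (-0.99), Hif1a (-0.97), Pgam1 (-0.68), Pkm (-0.61), Gapdh (-0.56) and Aldoa (-0.38). Hk2 gave 2 of 4776580 UMIs in cells with Igfbp4 of all 5 mice and 92 of 28403192 in cells without, a pooled ratio of 0.129 (exact 95% interval 0.0154 to 0.480, counting error only). Slc16a3, the lactate exporter, gave 4 against 183 UMIs (pooled ratio 0.130, interval 0.0350 to 0.338). Cells with Igfbp4 came mostly from KO mice, and 106 of the Slc16a3 UMIs in cells without it came from WT1. By mouse, Slc16a3 stood at 0.973, 1.13, 0, 0 and 0 CPM in cells with Igfbp4 and at 5.74, 6.79, 9.86, 3.11 and 2.11 CPM in cells without. With at least 1 Igfbp4 UMI as the limit, 2 members were higher and 4 lower.

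Of the further pathway genes, 3 were higher and 6 lower of 36 in cells with Igfbp4, against 8.36% and 19.3% of genes. Bhlhe40 had a log2 change of -2.75 (edgeR adjusted p = 8.3e-14) and Nfil3 one of -2.09 (8.8e-10), the genes that were higher in kidney.

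When all cells with an Igfbp4 UMI were left out, Ldhb stood in spleen at 46.05 and 58.4 CPM in KO mice and 35.9, 10.6 and 16.2 CPM in WT mice. The genotype log2 change of Ldhb was then 1.27 in place of 1.73, that of Pdk1 1.28 in place of 1.77, and that of Gapdh -0.41 in place of -0.51. In spleen cells with no Nkg7 UMI, of which WT2 had 50 and WT3 164, the changes were 0.67 for Ldhb (edgeR adjusted p = 0.338), 0.82 for Pdk1 (0.636), -0.06 for Gapdh (0.989) and -0.48 for Aldoa (0.370). Of these 4, only Aldoa had a change as large as over all spleen cells (-0.49).

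**Figure D4:**
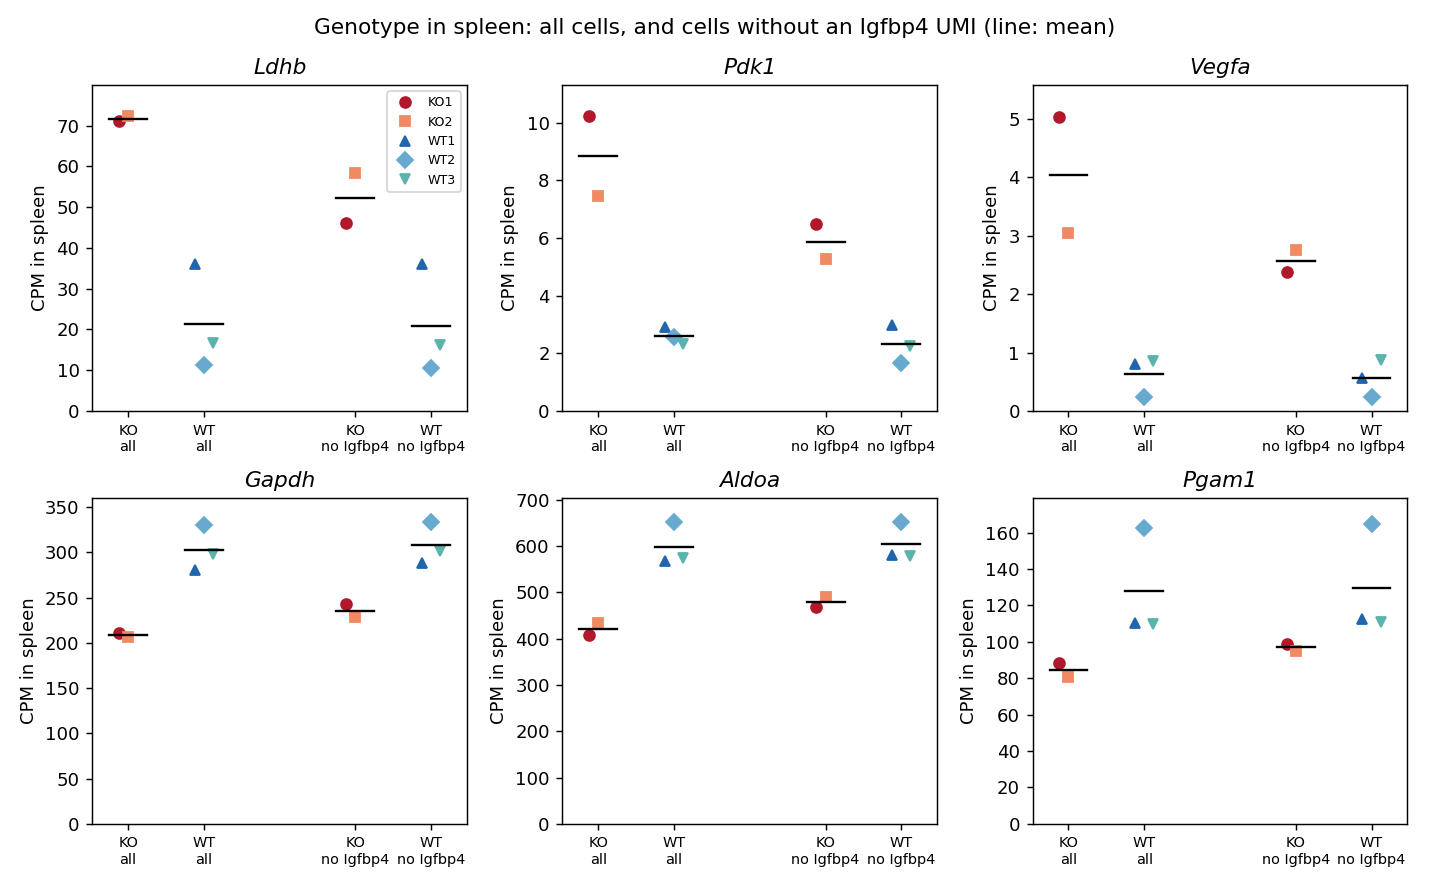
Level (CPM) of 6 members in spleen of 2 KO and 3 WT mice, for all cells and for cells with no Igfbp4 UMI, with a line at each group's mean. Both KO mice lie above the WT mice for Ldhb, Pdk1 and Vegfa and below them for Gapdh, Aldoa and Pgam1, in all cells and without Igfbp4.

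Cells with at least 2 UMIs of Nkg7, a granule gene of effector cells, were compared with cells without it in the same way. In spleen 1 member was higher and 5 were lower of 36, against 3.78% and 3.86% of genes. Ldhb stood at 32.6, 52.8, 25.3, 11.4 and 13.7 CPM in cells with Nkg7 of KO1, KO2, WT1, WT2 and WT3 and at 95.5, 87.3, 61.7, 23.5 and 62.1 CPM in cells without. It was lower in 5 of 5 mice (log2 change -1.34, SE 0.19, edgeR adjusted p = 0.00161) and was called in all 6 alternatives. Vegfa (-2.87), Pdk1 (-1.62), Egln3 (-0.95) and Hif1a (-0.54) were lower and Pgam1 (0.49) was higher, and each of these was called in 0 or 1 of 6 alternatives. Without WT1, 3 members were lower, and without any other single mouse 1 was, with 0 to 2 higher.

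In kidney 1 member was higher and 3 were lower of 33, against 3.40% and 4.53% of genes. Mxi1 stood at 185, 178, 190.2, 315 and 196 CPM in kidney cells with Nkg7 of KO1, KO2, WT1, WT2 and WT3 and at 71.8, 72.5, 92.2, 133 and 104 CPM in cells without. It was higher in 5 of 5 mice (log2 change 1.17, SE 0.14, edgeR adjusted p = 0.000303) and was called in all 6 alternatives. Among cells with no Nkg7 UMI, Mxi1 stood at 74.1 to 136 CPM in kidney and at 22.6 to 94.9 CPM in spleen, and kidney was the higher organ in each mouse. The ratio of kidney to spleen was smaller in each mouse than over all cells. In WT2 the values were 136 and 94.9 CPM, from 70 kidney and 50 spleen cells, against 324 and 73.2 CPM over all cells.

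Other lists moved with Nkg7 in kidney. All 6 effector markers tested and 2 of 2 CD8, γδ and NK markers were higher (Cd8a 4.49, Cd8b1 3.13). Lower were 5 of 5 naive markers, 7 of 7 kidney markers tested (median -8.61), 1 of 4 myeloid markers and 4 of 13 early-response and heat-shock genes. In spleen, 2 of 3 CD8, γδ and NK markers were higher and 4 of 5 naive and 4 of 6 myeloid markers lower. Their part in the members' values was not tested.

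Ldhb was lower in kidney cells with Nkg7 (log2 change -2.35, SE 0.49, edgeR adjusted p = 0.0132), where the cells without Nkg7 of WT3 stood at 402 CPM. Without WT3 the change was -1.47 (adjusted p = 0.00192), and without WT2 it missed the threshold (0.0596). Over all kidney cells, those with kidney transcripts held 148 of 199 Ldhb UMIs in WT3, 35 of 214 in WT1 and 17 of 79 in WT2. Their part in the Ldhb change with Nkg7 was not tested. Hif1a (-0.65) and P4ha1 (-0.60) were also lower. Leaving out KO1 left 1 member lower, as did leaving out WT2.

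In dividing cells 7 of 15 enzymes tested were higher and 1 lower, while no hypoxia target was higher. Spleen cells with at least 2 UMIs over 6 cycling genes numbered 39 to 165 per mouse, with medians of 4605.5 to 7632 UMIs against 3080 to 3599 in cells with none. Of 34 members tested, 7 were higher, all of them enzymes, and 4 lower, against 15.6% and 13.4% of genes. Of the 9 targets tested, 0 were higher and 3 lower (Pdk1 -1.53, P4ha1 -0.80, Bnip3l -0.41). In the same cells 10 of 13 early-response and heat-shock genes were lower (median -1.05), as were 4 of 5 naive and 2 of 7 effector markers, and their part was not tested.

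Tpi1 stood at 207, 110.4, 240.0, 212 and 121 CPM in cycling cells of KO1, KO2, WT1, WT2 and WT3 and at 55.4, 47.97, 79.9, 42.6 and 37.9 CPM in cells with no cycling UMI. All 5 mice had more in cycling cells (log2 change 1.73, SE 0.14, edgeR adjusted p = 1.5e-06). The log2 changes of the other enzymes were 1.13 for Pgk1, 0.98 for Pgam1, 0.93 for Pkm, 0.90 for Ldha, 0.78 for Gapdh and 0.61 for Eno1, and each was called in all 6 alternatives. Ldhb was lower (log2 change -0.91, SE 0.17, edgeR adjusted p = 0.00170), so that the lactate dehydrogenase genes moved in opposite directions. Of the further pathway genes, 7 were higher and 3 lower of 34, against 15.6% and 13.4% of genes. Tkt, of the pentose phosphate pathway, was among them at 1.09. No doublet caller was run, and droplets holding 2 cells of 1 mouse may be among these cells of high UMI count.

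**Figure D5:**
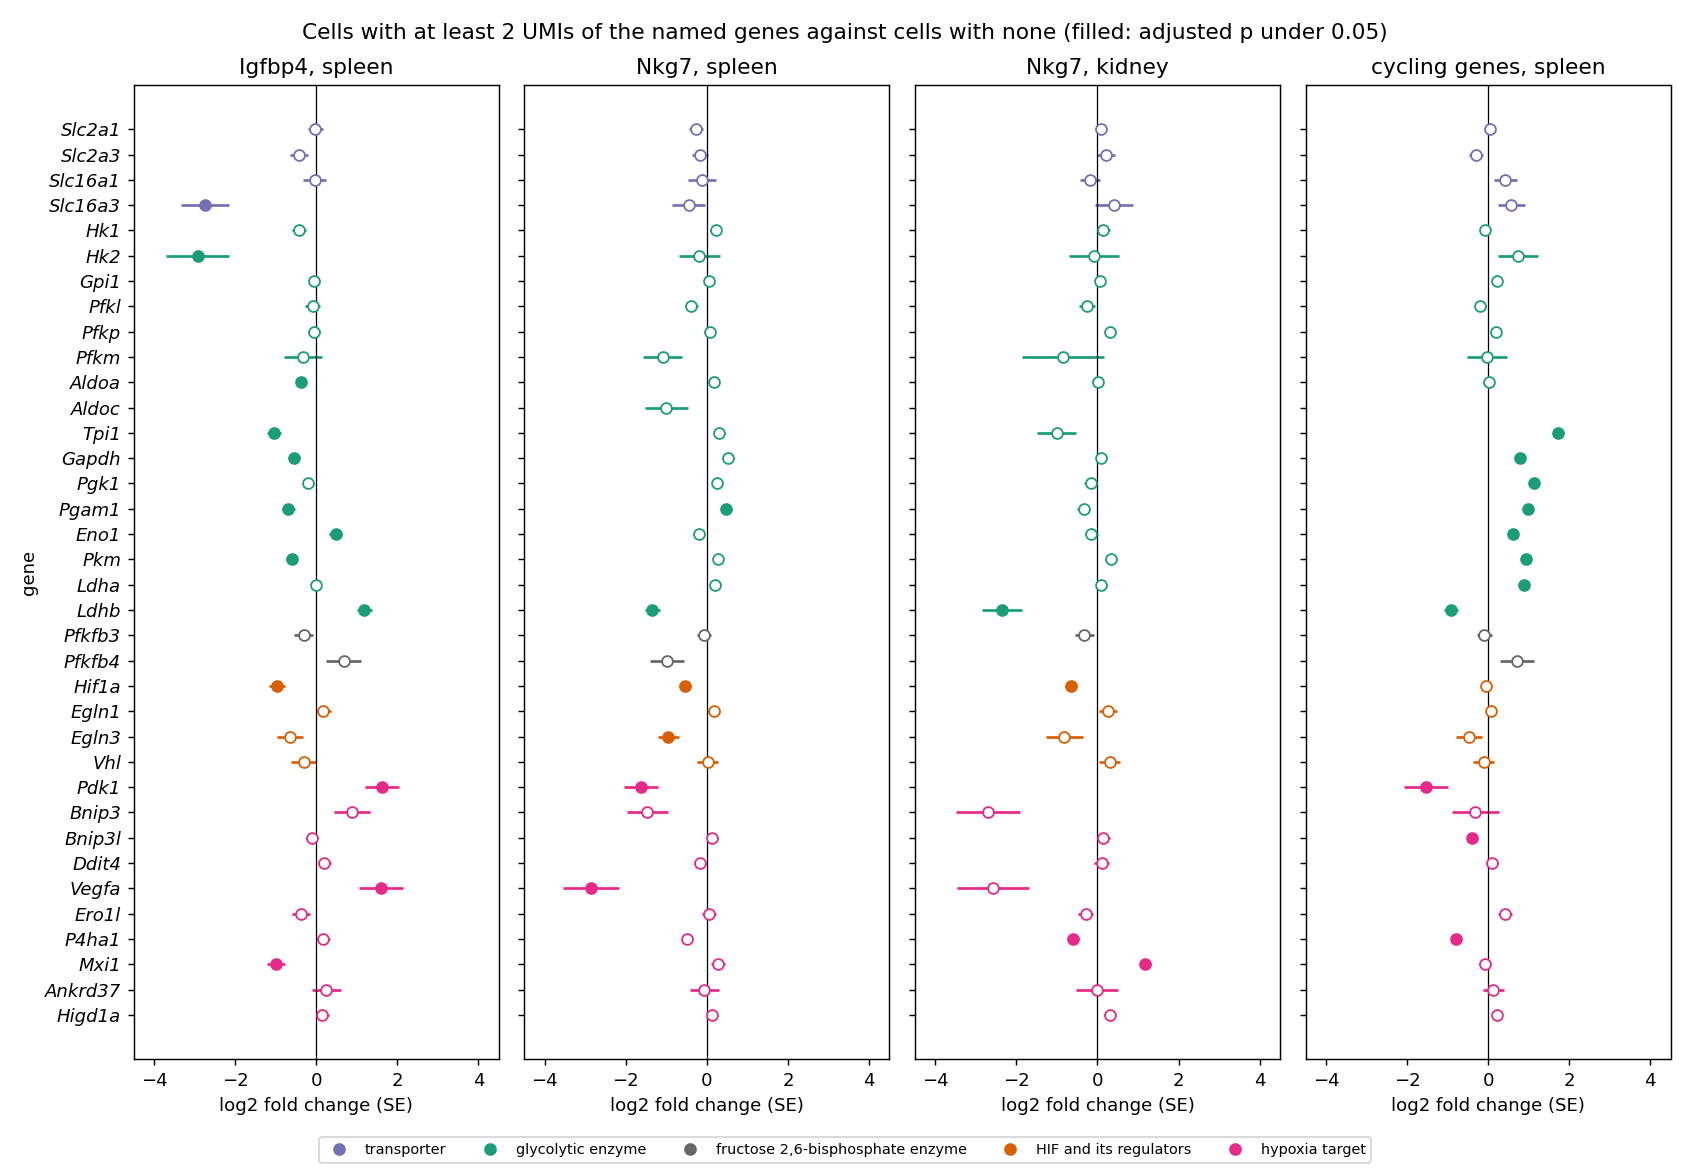
Log2 fold change with its standard error (edgeR) of the members in cells with at least 2 UMIs of Igfbp4, of Nkg7 or over 6 cycling genes against cells with none, filled where the adjusted p is under 0.05. Ldhb is higher with Igfbp4 (1.19) and lower in the other 3 comparisons, and 7 enzymes are filled on the higher side for cycling cells.

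Over all 10 sums, the highest level was 1.24 times the lowest for Bnip3l, 2.50 times for Slc2a1, 6.45 times for Ldhb and 12.6 times for Mxi1. The members lie on many chromosomes, with Slc2a1 at chr4:119108745-119137330, Ldhb at chr6:142490249-142507957, Hif1a at chr12:73901324-73947554 and Mxi1 at chr19:53310128-53373293 (RefSeq, GRCm38.p6).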

How the data were processed

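Single-cell RNA libraries were read from the 5′ end. The deposited matrices hold UMI counts, made by the authors with Cell Ranger 7.1.0 per the file headers, and Cell Ranger 7.1.0, Seurat 5.0.1 and mm10 (GRCm38) are named in the submitters' processing notes. Further settings: not given in the sources used here. Of 18 barcode blocks, the 10 of the first day were each led by 1 antibody tag, joined by order to the deposited key of mouse, organ and genotype. The key gives tag sequences and the matrices tag numbers, so this order is assumed. The key's organ then matched the matrix in 10 of 10 blocks, and the mouse and genotype of each block rest on the order. The 8 blocks of the second day repeat the same cells and were left out, so that 5 of the 9 mice in the key remained. Cells with fewer than 200 genes or with 10% or more mitochondrial UMIs were removed, which kept 13337, and 13 cells led by another tag were dropped. No barcode stood in more than 1 of the 10 blocks, and 30 also stood in second-day blocks. No doublet caller was run.

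Counts were summed per mouse and organ and fitted with edgeR 4.0.16 (R 4.3.3; TMM, filterByExpr, quasi-likelihood test, Benjamini-Hochberg threshold 0.05 over all genes), with DESeq2 1.42.0 as an alternative. The SE is the log2 change over the root of the F statistic. The organs of a mouse are paired through the tag key's order. Their deviations from the group means correlated at 0.02 for KO1 and KO2 and at 0.63, 0.58 and 0.24 for WT1, WT2 and WT3. The deviations of 2 mice from their mean mirror each other, so KO1 and KO2 share the same value. At 0.02, that value does not bear out the pairing of the KO organs. The fits were tested on simulated data. The members and lists were chosen with earlier results of these data known. Values per mouse are given for up to 12 members called in any comparison, by adjusted p, and for the sensor genes, with a few more named after their values were seen. Of the other pathway genes, at most the 6 with the smallest adjusted p per comparison are named. All 36 members matched RefSeq genes, 35 by symbol and Ero1l by synonym.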

Additional observations from a re-analysis of the deposited data

Results flagged for a closer look

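Pgk1, the phosphoglycerate kinase, was the only member whose organ difference ran one way in every KO mouse and the other way in every WT mouse. The log2 ratio of kidney to spleen was 0.09 and 0.08 in KO1 and KO2 and -0.09, -0.29 and -0.17 in WT1, WT2 and WT3. The difference between genotypes was 0.27 (SE 0.14, edgeR adjusted p = 0.704), which did not pass the threshold.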

How the results depend on the processing

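Of the single-member values between organs, 146 kept their direction and side of the threshold over the alternatives, 38 kept only the direction and none reversed. The 9 members higher in kidney became 1 without stress cells (1416 genes called) and 7 to 9 with 1 mouse left out. The 2 lower became 0 with DESeq2, 5 with library totals, 4 without stress cells, 0 to 2 with 1 mouse left out, and 1 with DESeq2 size factors, no filter on low counts, no cycling cells, no cells of other lineages, stricter quality limits or no shared barcodes. With no replicate block, which drops the pairing of organs by mouse, 7 were higher and 1 lower, and 2665 of 11628 genes were called. Leaving out cells with kidney transcripts, an alternative chosen after seeing the data, gave 10 higher and 2 lower.

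Within WT mice, leaving out 1 mouse gave 2 to 6 higher and 0 to 2 lower. For KO against WT in spleen, DESeq2 gave 3 higher and 3 lower (697 genes called), no filter on low counts 1 and 1 (340), a joint fit of 4 groups 1 and 2 (264), and no cells of other lineages 1 higher (272). Leaving out 1 mouse gave 0 to 6 higher and 0 to 5 lower in spleen, 0 to 2 higher in kidney and 0 to 1 lower for the interaction, which gave 1 lower with no filter. In kidney, DESeq2 called 58 genes. The Ldhb change of KO against WT in kidney, not called (0.38), was -0.019 without WT2, 0.93 without WT3 and -1.56 in cells with no Nkg7 UMI. Without cells carrying kidney transcripts, kidney Ldhb stood at 43.3 and 46.1 CPM in KO mice and at 28.6, 10.5 and 15.8 CPM in WT mice. The causes of these shifts were not tested.

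With at least 1 UMI as the limit, Igfbp4 cells had 2 members higher and 4 lower, and Nkg7 cells of spleen 0 and 1. With 1 mouse left out the ranges were 2 to 4 higher and 7 to 10 lower for Igfbp4, 0 to 2 and 1 to 3 for Nkg7 in spleen, 1 to 3 lower for Nkg7 in kidney, and 7 to 8 and 3 to 4 for cycling cells. Without Mxi1, chosen after seeing the data, the summed targets differed between organs by 0.0767 in place of 0.42 (log2) and the ratio of enzymes to targets by -0.0048 in place of -0.35. Few UMIs limit Aldoc, Vegfa, Pfkfb4, Pfkm, Hk2, Pdk1 and Bnip3.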
